A study of Mus musculus with 6 samples.

Results

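The ERK pathway carries growth signals from receptor tyrosine kinases through RAS, RAF and MEK to the ERK kinases. Active ERK switches on genes, and the products of many of them turn the pathway down again. The genes described here are 10 genes of the ERK response, measured in 889 cells. Dusp4, Dusp5 and Dusp6 encode phosphatases that remove the activating phosphates from ERK. Spry1, Spry2, Spry4, Spred1 and Spred2 encode Sprouty and SPRED proteins that restrain signaling between the receptor and RAF. Etv4 and Etv5 encode ETS transcription factors, and their genes are induced downstream of ERK. In many lung tumors the pathway stays active, and such genes are commonly read as a record of its output. The members were taken by gene name from the count files, and each of the 10 names matched 1 of the 34745 genes.

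889 is a murine lung cancer line, labelled as lung of strain C57BL/6. The sgcontrol group held 3 libraries of cells transduced with Cas9 and a control sgRNA against EGFP, and the sgkiaa1522 group held 3 libraries of cells transduced with Cas9 and sgRNA against kiaa1522, isolated by puromycin or by sorting. All 6 libraries therefore came from cells that carried a lentiviral Cas9 vector. Which of the kiaa1522 sgRNAs the sequenced cells carried, and whether the cells were a pool or a clone, are not given in the sources used here. The labels number the libraries but do not say that they came from separate cultures, so p-values measure the spread between these libraries, which may be technical.

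The libraries held between 12220001 counts (sgkiaa1522 replicate 1) and 18609376 counts (sgkiaa1522 replicate 2), and the members had between 457 and 9307 counts in a library. The targeted gene, listed as C77080 in mouse, had 127 ± 2.93 CPM in the sgcontrol libraries and 210 ± 6.38 CPM in the libraries labelled sgkiaa1522 (CPM, read counts relative to the library size after TMM normalization; SD, n = 3), so its mRNA was higher where it was to be depleted, with a log2 fold change of 0.73 (edgeR quasi-likelihood test, adjusted p = 9.1e-05). Whether the libraries are labelled correctly was not tested. Each direction below therefore refers to the libraries labelled sgkiaa1522, with more kiaa1522 mRNA than the control, and the files hold no protein measurement. Of 6 epithelial markers, Krt8, Krt18 and Krt19 were abundant, Cdh1 was between 51.9 and 62.1 CPM in the sgcontrol and between 19 and 21.2 CPM in the sgkiaa1522 libraries, Nkx2-1 was between 13.7 and 59.1 CPM and between 9.35 and 39.2 CPM, and Epcam had 0 counts in all 6 libraries, where the limit that a count of 0 allows (3 counts) is between 0.161 and 0.246 CPM and covers counting error only. The summed epithelial markers lay between 3850 and 4610 CPM in the sgcontrol and between 3230 and 3480 CPM in the sgkiaa1522 libraries, and the 5 fibroblast markers, nearly all of it Col1a2, summed to between 423 and 444 CPM and to between 144 and 162 CPM in the same order, with Dcn and Lum at or under 3 counts in every library. The 5 leukocyte markers summed to between 2.37 and 5.72 CPM in the sgcontrol libraries, with Lyz2 at up to 3.6 CPM, and to between 11.1 and 13.6 CPM in the sgkiaa1522 libraries, most of it Cd68 there, while Cd3e had 0 counts and Ptprc did not exceed 0.801 CPM in any library. The 3 endothelial markers summed to at most 1.37 CPM in any library. The part of these shifts in the results below was not tested, and in bulk libraries fewer cells of a type and less RNA per cell cannot be told apart.

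RefSeq promoters (build GRCm38.p6) were matched by symbol for 7 of the 10 members, 1 each for Spred1, Spry1, Dusp6, Spred2, Spry2 and Dusp5 and 2 for Etv5. Dusp4, Spry4 and Etv4 had no entry. The 300 bases around each start (250 before and 50 after) were searched on both strands for CCGGAA (the core bound by ETS factors, the family of Etv4 and Etv5), TGAATGAA and TGAATGGA (octamers of the repressor CIC, which ERK signaling inactivates), TGACTCA (AP-1), TGACGTCA (CRE) and the CArG box, the element bound by serum response factor. Among the 8 member promoters, a CArG box was found in Dusp5 and CCGGAA in Spry2, and none of the other motifs was present. No match overlapped another. Of 32851 promoters of this length, 1.63% held a CArG box and 14.9% held CCGGAA, while 1.3% held TGAATGAA, 1.21% TGAATGGA, 5.2% TGACTCA and 1.79% TGACGTCA. Dusp5 is shown because its window held a pair of CArG boxes side by side. The same stretch of Dusp6 is shown because the genes encode closely related phosphatases and only Dusp5 passed the test below. Whether the CArG boxes have a part in that difference was not tested. Spred1, Spred2 and Etv5 also passed, without a CArG box in their windows. The lines give bases 120 to 31 before the RefSeq start, 5′ to 3′ on the gene's strand, with CArG boxes in capitals, from chr19:53529025-53529114 (plus strand) for Dusp5 and chr10:99263111-99263200 (plus strand) for Dusp6.
Dusp5: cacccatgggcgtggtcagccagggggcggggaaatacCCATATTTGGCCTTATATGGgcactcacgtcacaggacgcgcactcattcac
Dusp6: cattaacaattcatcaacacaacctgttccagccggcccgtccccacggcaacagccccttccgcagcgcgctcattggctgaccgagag

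The single CCGGAA match lay downstream of the Spry2 start, in the 30 bases from chr14:105896770-105896799 (minus strand), with the match in capitals.
Spry2: gaggtcatctatcCCGGAAtccgggagggt

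These are matches of letters only. No binding was measured, and a motif that was not found is only not in these windows. Other sequences that the same factors bind were not counted.

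The question of the comparison was whether the ERK feedback genes differ between cells that express kiaa1522 sgRNA and cells that express control sgRNA. Of the 10 members, all of which passed the filter of more than 500 counts over the 6 libraries, 6 rose in the libraries labelled sgkiaa1522 at an adjusted p of at most 0.05 (edgeR quasi-likelihood test, Benjamini-Hochberg adjustment over 10046 genes): Spry4, Dusp4, Spred1, Spred2, Dusp5 and Etv5. The same rule called 26.3% of all tested genes higher and 26.3% lower, so more than 1 in every 2 tested genes was called in one direction or the other. Dusp6, Spry1, Spry2 and Etv4 did not pass. No member was called lower by edgeR, none was lower at an unadjusted p under 0.05, and DESeq2 also called 0 lower. When the fold criterion of the study's methods was added (an absolute log2 fold change no smaller than 1), only Spry4 was left among the higher genes. The same criteria called 2.74% of all tested genes higher and 4.34% lower. A figure legend of the study sets a higher fold limit, which no member reached. The median log2 fold change of the 10 members was 0.29, and that of all tested genes was -0.0067. In 7 members the lowest library labelled sgkiaa1522 was above the highest sgcontrol library, an arrangement found in 30.6% of all tested genes, and the reverse, found in 31.1%, occurred in 0 members.

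**Figure D1:**
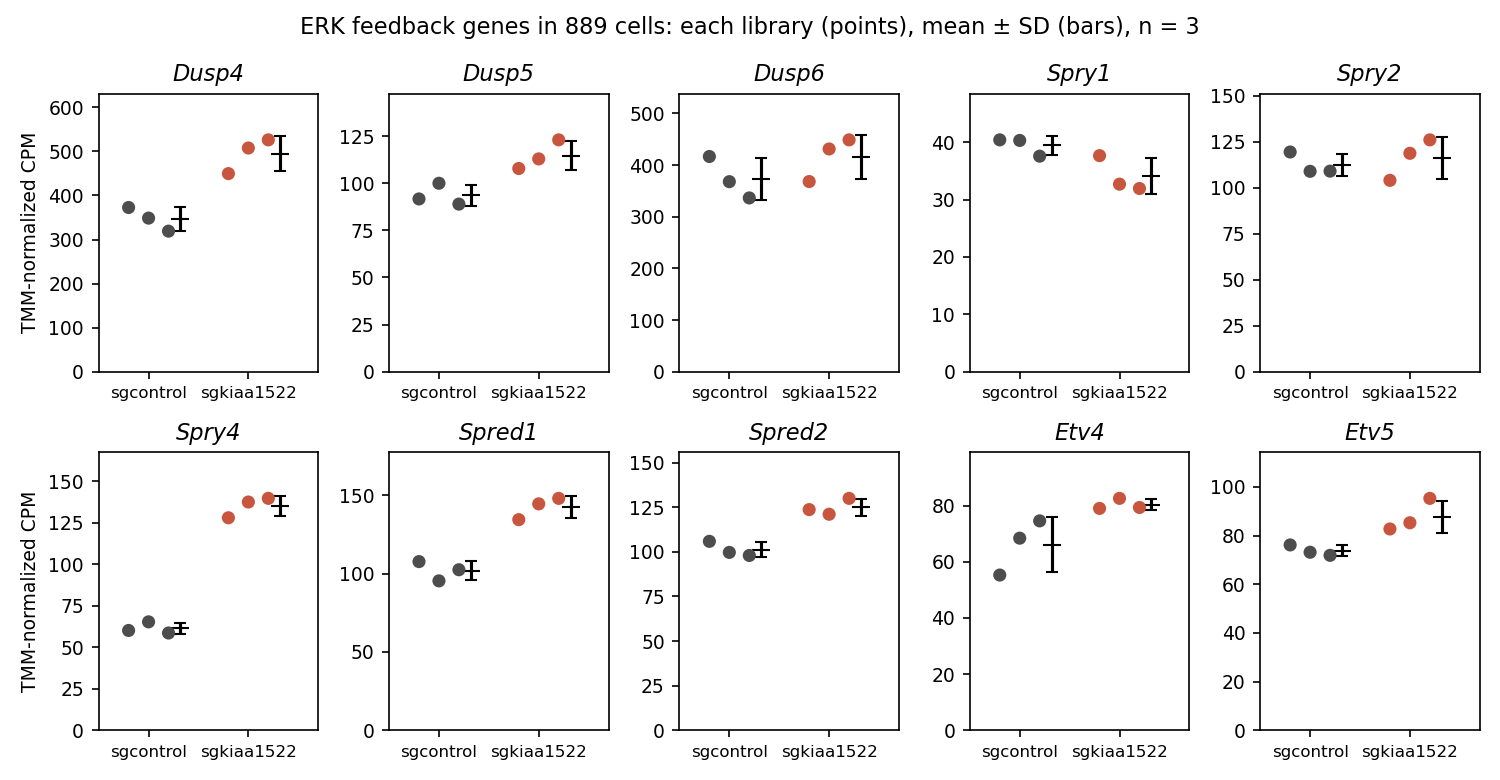
TMM-normalized CPM of each member in each library (points) on a linear axis from 0, with the mean and SD of the 3 sgcontrol and the 3 sgkiaa1522 libraries beside them. Spry4 shows the widest gap in proportion to its level between the groups, from at most 65.3 to at least 128 CPM, and the groups overlap only in Dusp6, Spry1 and Spry2.

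Spry4, a Sprouty gene, had the largest fold change of the 10 members. Spry4 (ENSMUSG00000024427, on the minus strand of chromosome 18 of GRCm38 from 38586247 to 38601415) encodes an inhibitor of receptor signaling to RAS and RAF. Replicates 1 to 3 of sgcontrol had 60.1, 65.3 and 58.6 CPM, and those labelled sgkiaa1522 had 128, 138 and 140 CPM. Every library labelled sgkiaa1522 was far above every sgcontrol library, and the spread within each group was small beside the gap (SD of 3.52 and 6.21 CPM). The log2 fold change was 1.14 (standard error 0.0715, edgeR adjusted p = 4.3e-05), a 2.2-fold rise, and on the signed log2 scale, on which genes that fell rank lowest, it was above 97.9% of all tested genes. The exact two-sided permutation test over libraries gave p = 0.1, the smallest that 3 against 3 allow. The log2 fold change stayed between 1.10 and 1.18 over 13 alternative settings, and its largest adjusted p among them was 9.62e-04.

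Spry2 and Spry1, which belong to the same family and act on the same pathway, did not pass the test. Spry2 (ENSMUSG00000022114, minus strand of chromosome 14 from 105891947 to 105896819) measured 119, 109 and 109 CPM in the sgcontrol libraries and 104, 119 and 126 CPM in the libraries labelled sgkiaa1522, so the groups overlapped throughout. Its log2 fold change was 0.049 (standard error 0.0859, edgeR adjusted p = 0.654). The sign turned without sgkiaa1522 replicate 3, at -0.012 (edgeR adjusted p = 0.931, where the range over all alternatives was 0.235 to 0.931). The 343 tested genes of chromosome 14 had a median log2 fold change of -0.38, below that of all tested genes. The chromosomes of the other members had medians from -0.19 (chromosome 10, with Dusp6) and -0.12 (chromosome 3, with Spry1) to 0.14 (chromosome 2, with Spred1) and 0.18 (chromosome 19, with Dusp5), and that of Spry4 had 0.023. The part of these in the members' values was not tested.

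Spry1 (ENSMUSG00000037211, plus strand of chromosome 3 from 37639947 to 37644598) was the only member with a log2 fold change below 0. The sgcontrol libraries had 40.4, 40.3 and 37.6 CPM, against 37.7, 32.7 and 31.9 CPM in those labelled sgkiaa1522. Replicate 1 of the latter group lay just above the lowest sgcontrol library, and the other 2 lay below all of them. The log2 fold change was -0.21 (standard error 0.0911, edgeR adjusted p = 0.0859), and without sgkiaa1522 replicate 1 it was -0.29 and passed (edgeR adjusted p = 0.0388, where the range over the alternatives was 0.0388 to 0.254). Gm42922, a gene on the opposite strand, covers 24.4% of the exon length of Spry1, and had 30 counts over the 6 libraries.

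Both SPRED genes, whose products bind neurofibromin and bring it to RAS at the membrane, rose. Spred1 (ENSMUSG00000027351, plus strand of chromosome 2 from 117121374 to 117182279) measured 108, 95.4 and 103 CPM in the sgcontrol libraries and 135, 145 and 148 CPM in the libraries labelled sgkiaa1522. The groups were separate, and the log2 fold change was 0.48 (standard error 0.0714, edgeR adjusted p = 0.00117). Spred2 (ENSMUSG00000045671, plus strand of chromosome 11 from 19924375 to 20024026) measured 106, 99.7 and 98 CPM and 124, 121 and 130 CPM in the same order. Again the lowest library labelled sgkiaa1522 was above the highest sgcontrol library, and the log2 fold change was smaller, 0.30 (standard error 0.0632, edgeR adjusted p = 0.00534). Both SPRED genes passed in all 13 alternative settings.

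Of the phosphatase genes, Dusp4 and Dusp5 passed the test and Dusp6 did not. Dusp4 (ENSMUSG00000031530, plus strand of chromosome 8 from 34807297 to 34819894), which encodes a nuclear phosphatase of ERK and other MAP kinases, measured 373, 349 and 319 CPM in the sgcontrol libraries. In the libraries labelled sgkiaa1522 it measured 450, 508 and 526 CPM, with no overlap. Its log2 fold change was 0.51 (standard error 0.0845, edgeR adjusted p = 0.00194), and it passed in all 13 alternatives.

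Dusp5 (ENSMUSG00000034765, plus strand of chromosome 19 from 53529109 to 53542431) encodes a nuclear phosphatase with a preference for ERK. It measured 91.7, 100 and 88.9 CPM in the sgcontrol and 108, 113 and 123 CPM in the sgkiaa1522 libraries, which did not overlap. The log2 fold change was 0.29 (standard error 0.0774, edgeR adjusted p = 0.015). Without sgkiaa1522 replicate 3 it was 0.24 and did not pass (edgeR adjusted p = 0.0648, where the range over the alternatives was 0.00508 to 0.0648). With the replicate number as a block Dusp5 did not pass either (edgeR adjusted p = 0.0517). In GENCODE M21 an antisense gene covers 22.1% of the exon length of Dusp5, and since the strand setting of the counting is not given in the sources used here, its reads cannot be told apart from those of Dusp5.

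Dusp6 (ENSMUSG00000019960, plus strand of chromosome 10 from 99263231 to 99267489) encodes the cytoplasmic phosphatase of ERK and is among the genes most often used to read ERK activity. It measured 416, 368 and 336 CPM in the sgcontrol libraries and 368, 431 and 449 CPM in the libraries labelled sgkiaa1522. The highest sgcontrol library exceeded the lowest library labelled sgkiaa1522, and the spread within each group (SD of 40.4 and 42.4 CPM) was about as large as the difference between the means of 374 and 416 CPM. The log2 fold change was 0.16 (standard error 0.103, edgeR adjusted p = 0.239), and it passed in none of the 13 alternatives (edgeR and DESeq2 adjusted p between 0.0749 and 0.55). Its value ran from 0.081 without sgcontrol replicate 3 to 0.24 without sgkiaa1522 replicate 1.

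The ETV genes had similar fold changes and different errors. Etv5 (ENSMUSG00000013089, minus strand of chromosome 16 from 22381309 to 22439719) measured 76.2, 73.2 and 71.9 CPM in the sgcontrol libraries and 82.7, 85.3 and 95.3 CPM in the libraries labelled sgkiaa1522. Its log2 fold change was 0.25 (standard error 0.0753, edgeR adjusted p = 0.0247). This was the least stable of the 6 calls: it was lost without sgcontrol replicate 2 (adjusted p = 0.0878 from edgeR), sgcontrol replicate 3 (0.0709), sgkiaa1522 replicate 2 (0.0558) or sgkiaa1522 replicate 3 (0.104), and the range over all alternatives was 0.0164 to 0.104. The call was also lost with the replicate number as a block (edgeR adjusted p = 0.0804).

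Etv4 (ENSMUSG00000017724, minus strand of chromosome 11 from 101769742 to 101785371) measured 55.3, 68.4 and 74.6 CPM in the sgcontrol libraries and 79, 82.6 and 79.3 CPM in the libraries labelled sgkiaa1522. The groups did not overlap, but the sgcontrol libraries were spread widely, with an SD of 9.86 CPM against 1.98 CPM. The log2 fold change was 0.28 (standard error 0.111) and did not pass (edgeR adjusted p = 0.065). It passed in DESeq2 (adjusted p = 0.048) and without sgcontrol replicate 3, where it was 0.37 (edgeR adjusted p = 0.0282), and the range over the alternatives was 0.0282 to 0.161. Without sgcontrol replicate 1 the fold change was 0.16 (log2), below the 0.27 of Etv5 in that fit.

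**Figure D2:**
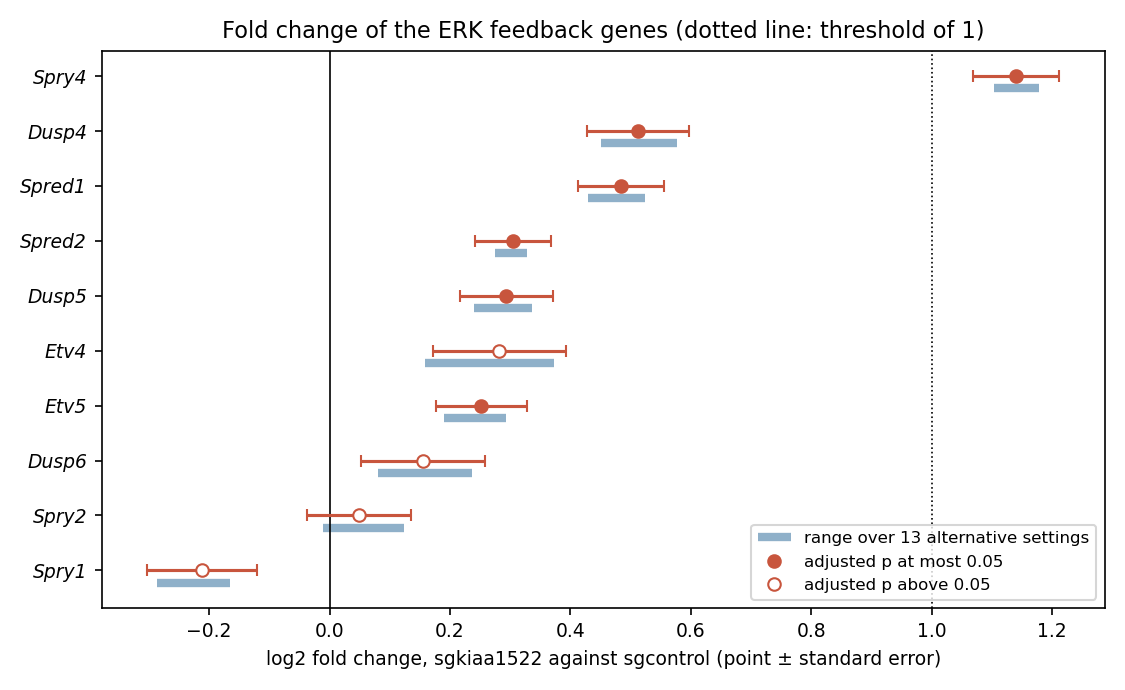
Log2 fold change of each member, sgkiaa1522 against sgcontrol, with its standard error (points and bars, filled where the adjusted p was at most 0.05) and the range over 13 alternative settings (blue bars). Spry4, at 1.14, is the only member beyond the dotted line at 1, and only the range of Spry2 crosses 0.

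The members also differed within a group. In sgkiaa1522 replicate 1, the library with the fewest counts, 9 of the 10 members were below their group mean on the log2 CPM scale, with a median deviation of -0.082. In sgkiaa1522 replicate 3 it was 8 of 10 above, with a median of 0.075. Among the sgcontrol libraries, replicate 1 had 7 members above its group mean and replicate 3 had 8 below. The widest deviations were those of Etv4, -0.25 in sgcontrol replicate 1 and 0.19 in sgcontrol replicate 3. Without sgkiaa1522 replicate 1 the number of members called higher was 6, and without sgkiaa1522 replicate 3 it was 4.

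Levels of different genes were compared only per exon length, as TPM (counts per base of exon, relative to the sum over genes) computed from the counts and the summed exons of GENCODE M21. In the sgcontrol libraries Dusp4 (325 ± 31.6 TPM; SD, n = 3) and Dusp6 (306 ± 39.7 TPM) were highest and overlapped each other, above 96.9% or more of the tested genes in their mean over all libraries. Spry2 (138 ± 10.6 TPM) and Dusp5 (97 ± 5.58 TPM) followed, each with a range separate from its neighbours. Spred2 (56.3 ± 3.59 TPM) overlapped Etv4 (54.5 ± 7.11 TPM), which overlapped Etv5 (46.1 ± 2.39 TPM), and Etv5 was separate from Spred1. Spred1 (38.6 ± 3.12 TPM), Spry1 (34.8 ± 1.93 TPM) and Spry4 (33.1 ± 1.76 TPM) came last, and the ranges of neighbours in this order overlapped as well.

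In the libraries labelled sgkiaa1522, Spry4 had moved from rank 10 to rank 5, at 77.7 ± 4.2 TPM. Its range there overlapped that of Spred2 (74 ± 3.88 TPM) and lay below that of Dusp5 (127 ± 10.3 TPM). Dusp4 (494 ± 43.9 TPM) was now separate from Dusp6 (364 ± 39.8 TPM), and Spry1 (32.1 ± 2.8 TPM) was lowest. TPM was not scaled by TMM, so changes between groups are read from CPM. The order depended on the length used: when each gene's mean transcript length was used instead, Dusp6 was above Dusp4 in both groups (295 against 170 TPM and 338 against 249 TPM), and Spry4 moved only from rank 10 to rank 9.

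**Figure D3:**
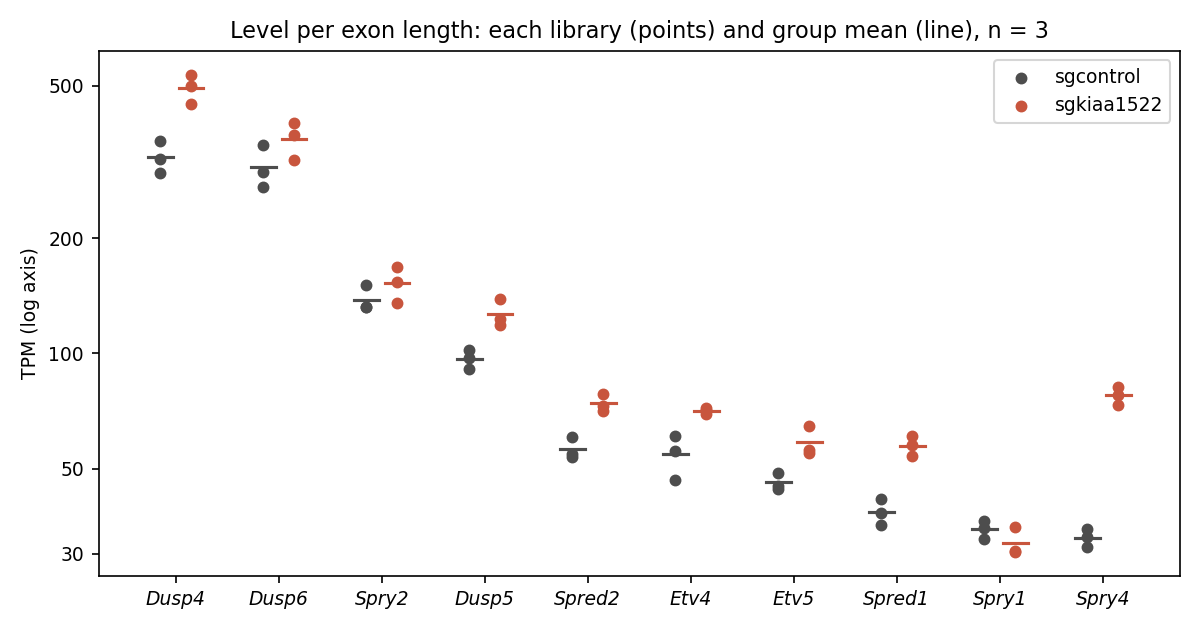
TPM per exon length of each member on a log axis, with each library as a point and the group mean as a line, ordered by the sgcontrol mean. Spry4, lowest in the sgcontrol libraries at 33.1 TPM, stands at 77.7 TPM in the libraries labelled sgkiaa1522, beside Spred2 at 74 TPM.

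Ratios within a family are given as a description, since no test of them was planned. The TPM ratio of Spry4 to Spry1 was 0.909, 0.99 and 0.953 in those labelled sgcontrol and 2.08, 2.57 and 2.67 in those labelled sgkiaa1522. That of Spry4 to Spry2 went from 0.24 ± 0.0214 to 0.512 ± 0.027 (SD, n = 3). Dusp4 to Dusp6 was 1.02, 1.08 and 1.08 in the sgcontrol and 1.4, 1.35 and 1.34 in the sgkiaa1522 libraries. Spred1 to Spred2 was 0.685 ± 0.0312 and 0.776 ± 0.0364. In each of these 4 pairs the groups were separate, whereas the libraries overlapped for Etv5 to Etv4 (0.86 ± 0.163 and 0.827 ± 0.0708) and for Dusp5 to Dusp6 (0.319 ± 0.0354 and 0.35 ± 0.0199).

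Likeness to other genes was measured as the root-mean-square difference of log2 CPM, centred per gene, over the 6 libraries and against 10043 genes. The genes most like Spry4, the member with the largest rise, were Irx3 (0.0435), Zfp36l1 (0.0463) and Ctdp1 (0.0464), with log2 fold changes of 1.18, 1.16 and 1.16. Those most like Spry1, the member with the lowest value, were Glul (0.0317), Rnf34 (0.0331) and Ipo9 (0.0363), with log2 fold changes of -0.22, -0.20 and -0.25. With 6 libraries in 2 groups, the difference between the groups makes up most of such a pattern for Spry4.

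The other phosphatases of MAP kinases were partly detected. Of 7 genes, Dusp2 and Dusp9 did not pass the filter, and 2 of the other 5 rose, beside 26.3% of all tested genes: Dusp7, a cytoplasmic ERK phosphatase close to Dusp6, from 34.1 to 59.2 CPM (log2 fold change 0.79, standard error 0.0748, edgeR adjusted p = 1.71e-04), and Dusp16, a phosphatase of JNK and p38, from 114 to 144 CPM (0.34, standard error 0.0591, edgeR adjusted p = 0.00244). Dusp1, an immediate-early phosphatase, had a log2 fold change of 0.37 (standard error 0.135) and an adjusted p of 0.0501 (edgeR), which ranged from 0.0159 to 0.121 over the alternatives. Dusp10 had -0.22 (standard error 0.107, edgeR adjusted p = 0.117). The median of the 5 tested genes was 0.34. With a minimum of 1 count over the 6 libraries in place of the filter, 4 genes of the list were called higher, Dusp1 and Dusp9 with the others, and Dusp9 had at most 9 counts in a library.

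Among 9 other family members and feedback inhibitors, Spry3, Etv1 and Il17rd did not pass the filter. Of the 6 tested genes 4 rose and 1 fell, beside 26.3% of all tested genes in each direction. Erf, an ETS repressor that ERK exports from the nucleus, rose by a log2 fold change of 0.64 (standard error 0.0714, edgeR adjusted p = 3.57e-04), and Errfi1, an inhibitor of EGF receptor kinases, by 0.51 (standard error 0.1, edgeR adjusted p = 0.00409). Cbl, a ubiquitin ligase for receptors that Sprouty proteins bind, rose by 0.57 (standard error 0.138, edgeR adjusted p = 0.0107), and Tesk1, a kinase bound by Sprouty proteins, by 0.32 (standard error 0.105, edgeR adjusted p = 0.0354). The call of Tesk1 was lost without any one library other than sgcontrol replicate 3 (edgeR adjusted p up to 0.0973). It was also lost with the replicate number as a block. Pea15a, which holds ERK in the cytoplasm, fell from 222 to 114 CPM (log2 fold change -0.96, standard error 0.0704, edgeR adjusted p = 7.33e-05). Spred3, the remaining SPRED gene, had -0.049 (standard error 0.12, edgeR adjusted p = 0.753), and its sign turned with single libraries left out (-0.135 to 0.044). The median of the 6 was 0.42.

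Of 21 genes from adaptors to ERK, Gab1 and Ksr2 did not pass the filter, 8 rose, 3 fell and 8 did not pass the test, beside 26.3% of all tested genes in each direction, and the median log2 fold change was 0.077. The rises included 3 GTPase activators that switch RAS off: Rasa2 (from 30 to 69.6 CPM, log2 fold change 1.21, standard error 0.112, edgeR adjusted p = 1.55e-04), Rasa1 (0.82, standard error 0.105, edgeR adjusted p = 6.29e-04) and Nf1 (0.63, standard error 0.0887, edgeR adjusted p = 9.8e-04), the neurofibromin that SPRED proteins bind. Sos1, an exchange factor that switches RAS on, rose from 170 to 322 CPM (0.93, standard error 0.105, edgeR adjusted p = 3.74e-04). Shc1, an adaptor below the receptors, fell from 310 to 165 CPM (-0.91, standard error 0.0597, edgeR adjusted p = 5.03e-05).

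Mapk3 and Araf were chosen for naming after their values were seen. Mapk3, which encodes an ERK kinase, fell from 295 to 225 CPM (log2 fold change -0.39, standard error 0.067, edgeR adjusted p = 0.00227). Araf, which encodes a RAF kinase, fell by 0.24 on the log2 scale (standard error 0.0818, edgeR adjusted p = 0.0415), a call lost without any one library other than sgcontrol replicate 1 (edgeR adjusted p up to 0.145).

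Of 12 other genes that ERK signaling induces, all tested, 5 rose, 4 fell and 3 did not pass, with the same 26.3% of all tested genes each way as background and a median log2 fold change of -0.052. Fosl1, an AP-1 subunit stabilised by ERK, rose from 69.4 to 175 CPM (log2 fold change 1.33, standard error 0.112, edgeR adjusted p = 1.14e-04), while Egr1, an immediate-early zinc finger factor, fell from 579 to 223 CPM (-1.38, standard error 0.0611, edgeR adjusted p = 1.5e-05). Myc rose by 0.78 (standard error 0.0557, edgeR adjusted p = 6.7e-05), Maff by 0.59 (standard error 0.0712, edgeR adjusted p = 5.09e-04) and the cytokine gene Lif by 0.50 (standard error 0.125, edgeR adjusted p = 0.0121). Phlda1, often listed with Dusp6 and Spry4 among genes that follow ERK activity, fell from 145 to 111 CPM (-0.38, standard error 0.0654, edgeR adjusted p = 0.00235). Without sgkiaa1522 replicate 2 only 2 genes of this list were called lower, since the receptor genes Epha2 (-0.20, standard error 0.0514, edgeR adjusted p = 0.0136) and Epha4 (-0.31, standard error 0.0921, edgeR adjusted p = 0.0258), named after their values were seen, no longer passed. Epha2 was also lost without sgcontrol replicate 2, and Epha4 without sgkiaa1522 replicate 3 (edgeR adjusted p of up to 0.0625 and 0.0982 with a library left out). With the replicate number as a block, Epha2 did not pass either (edgeR adjusted p = 0.0737). Without sgkiaa1522 replicate 2, 4 genes of this list were called higher in place of 5.

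Of 7 regulators of ETV proteins and genes, 4 rose and 3 did not pass, where 26.3% of all tested genes rose, and the median was 0.46. Trib2 (from 64.1 to 142 CPM, log2 fold change 1.15, standard error 0.107, edgeR adjusted p = 1.62e-04) and Trib1 (0.78, standard error 0.0667, edgeR adjusted p = 1.21e-04) encode pseudokinases that work with the ubiquitin ligase COP1. Atxn1 (0.60, standard error 0.114, edgeR adjusted p = 0.00364) and Atxn1l (0.46, standard error 0.107, edgeR adjusted p = 0.00894) encode partners of CIC. Cic itself had 0.37 (standard error 0.16, edgeR adjusted p = 0.0845), which ranged from 0.0318 to 0.259 over the alternatives.

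**Figure D4:**
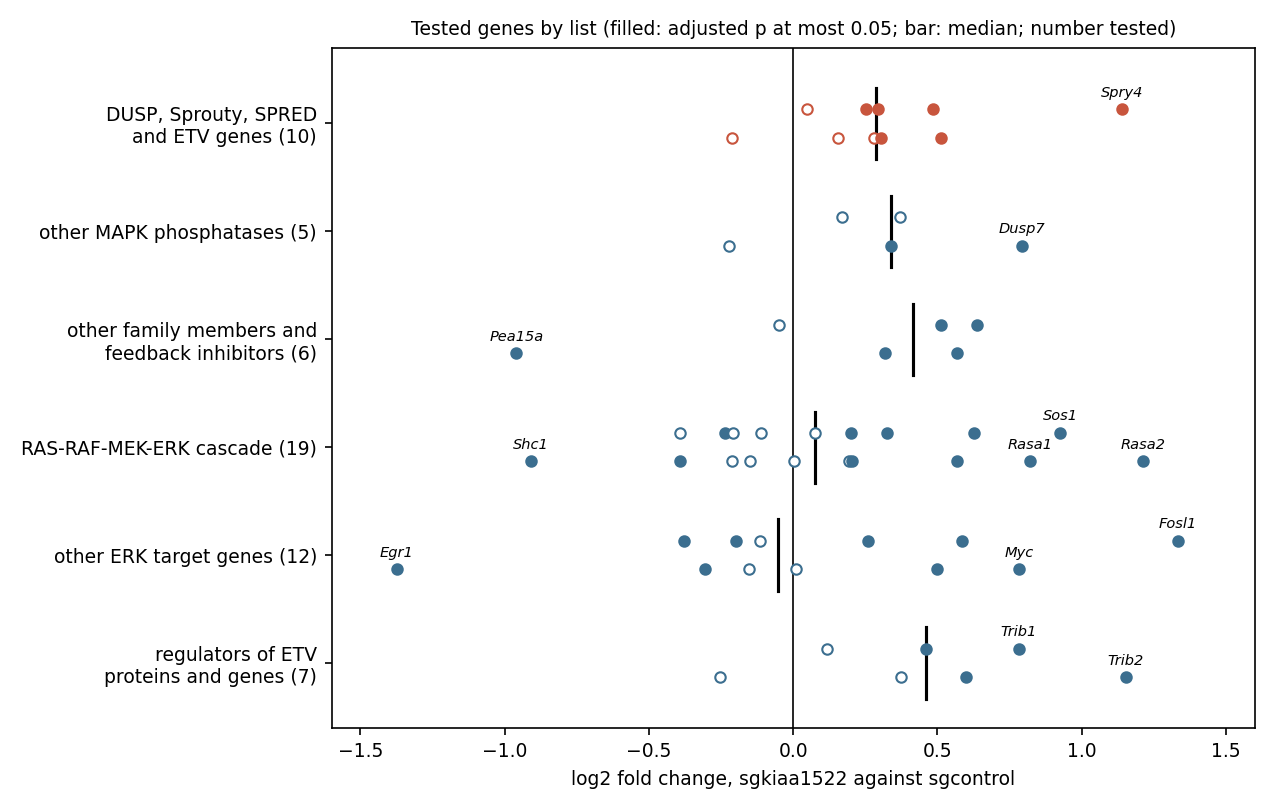
Log2 fold change of each tested gene, sgkiaa1522 against sgcontrol, by list, with filled points where the adjusted p was at most 0.05, a bar at the median and the number of tested genes in brackets. The medians run from -0.052 in the other ERK target genes to 0.46 in the regulators of ETV proteins and genes, with 0.29 in the DUSP, Sprouty, SPRED and ETV genes.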

How the data were processed

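RNA of 889 cells was sequenced in 6 libraries. After adaptor trimming and removal of rRNA reads (Seqtk), the authors aligned reads to GRCm38 with HISAT2 2.0.4 and counted uniquely mapped fragments with StringTie 1.3.0 (versions from the submitters' processing notes), and the deposited values are raw counts per Ensembl gene. The annotation release and strand setting are not given in the sources used here. Genes with more than 500 counts in total (10046, holding at least 99.48% of each library) were tested with edgeR 4.0.16 (R 4.3.3) by the quasi-likelihood test with TMM factors, Benjamini-Hochberg adjustment and no covariates. Thresholds follow the study's methods. The tests were checked on simulated data. No 2 libraries of a group were repeats of one (chi-square per degree of freedom at least 10.1). Positions and exon lengths came from GENCODE M21 (34267 genes matched), and promoters from RefSeq, GRCm38.p6.

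All members, at most 4 genes per list by adjusted p beyond those past both thresholds, and the 3 genes most like the members with the largest rise and fall were named, apart from genes marked in the text and Tesk1 and Spred3, which were named after their values were seen. Members and lists were chosen with earlier results of these data known. Alternatives were DESeq2 1.42.0, edgeR's likelihood ratio test, RLE factors, library size alone, 2 other filters, a replicate block, each library left out, no fold limit and another gene length. Single genes of the cascade list beyond those named are not reported here.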

Additional observations from a re-analysis of the deposited data

How the results depend on the processing

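Spry4, Dusp4, Spred1 and Spred2 kept their direction and an adjusted p of at most 0.05 in all 13 alternative fits. The labels number the replicates alike in both groups, but same-numbered libraries did not deviate together (correlations across genes of -0.214, -0.0508 and -0.165), so the numbers were not taken as pairs. With the replicate block 4 members were called higher, and Dusp5 (log2 fold change 0.29, edgeR adjusted p = 0.0517) and Etv5 (0.25, edgeR adjusted p = 0.0804) were not. Etv4 passed with DESeq2 (0.29). With each library left out, the log2 fold change ran from 0.24 to 0.34 for Dusp5, from 0.081 to 0.24 for Dusp6, from -0.29 to -0.17 for Spry1, from -0.012 to 0.12 for Spry2, from 0.16 to 0.37 for Etv4 and from 0.19 to 0.29 for Etv5, and between 0 and 1 member was called lower. Past both thresholds 436 genes were lower and 275 higher. Testing every gene with at least 1 count gave 941 and 767, filterByExpr gave 812 and 607, both with more low-count genes tested, and the adjusted p alone gave 2639 and 2638, and 6 higher members in place of 1. Scaling by RLE factors or library size alone changed no call or direction of a member. The cause of the lost and gained calls was not tested, and fits without a library have fewer samples. With 12220001 counts in the smallest library the members had at least 457 counts.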
